A study of Mus musculus with 6 samples.

Results

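The genes described here encode the proteins that license, start and carry out DNA replication, supply its nucleotides and control entry into S phase. They were 46 genes listed by name for their known roles, a list made with earlier results of these data known, and were sorted by role into origin licensing (12 genes), helicase activation (6), polymerases and fork machinery (14), nucleotide supply (4), fork protection (2) and E2F and G1 regulators (8). All 46 had at least 10 reads summed over the 6 libraries and were tested, among 19452 tested genes in all. Poly(A)+ RNA was sequenced from 3T3 cells, an established line of mouse embryonic fibroblasts (a Flp-In line, per the methods of the study), 3 libraries per group. Control cells received a control siRNA, and SAFB KD cells received a mix of siRNAs that targeted Safb, Safb2 and Sltm together. These targets encode the related nuclear RNA-binding proteins SAFB1, SAFB2 and SLTM. Per the methods, cells were transfected again the day after the first transfection and harvested on the third day. No other genotype or treatment is named for either group, and every library thus came from 1 cell line under transient knockdown.

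Replication starts from origins that are licensed in G1, when the origin recognition complex (ORC), with CDC6 and CDT1, loads the MCM2-7 helicase onto DNA. In S phase CDC45 and the GINS complex join MCM2-7 to form the active helicase, and polymerases alpha, delta and epsilon then copy the DNA with the help of the PCNA clamp, its RFC loader and the RPA single-strand binding protein. Cyclin D with CDK4 and cyclin E with CDK2 inactivate the RB protein, which releases E2F transcription factors, and many genes of this machinery are known E2F targets.

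Because many of these genes are known E2F targets, the promoter windows of the members were searched for an E2F-type word, and sequences are shown for the called genes with the smallest adjusted p that held it. The words searched were TTTCCCGC, TTTCGCGC, TTTGCCGC and TTTGGCGC on both strands, in windows from 250 bases before to 50 after each annotated start (RefSeq, GRCm38.p6). No other motif was searched. A window was found for 35 of the 46 members; Rfc2, Rb1, Tipin, Ccne2, Pole, Ccnd1, Gins2, Mcm4, Gins4, Gins1 and Gmnn were not matched. A word stood in 15 of 41 member windows (36.6%), each in a different gene, and in 2.26% of the 32851 windows of all genes in the table, of every gene type. The genes with a word were Orc1, Cdc6, Cdt1, Mcm3, Mcm5, Mcm6, Mcm7, Gins3, Pola1, Pold1, Rfc3, Lig1, Clspn, Cdk2 and E2f2. Below, capitals mark the word, read on the strand of the gene. Orc1 (chr4:108579204-108579503, plus strand) encodes the largest ORC subunit, and its word began at -27, counted from 0 at the start. Clspn (chr4:126556730-126557029, plus strand) encodes the checkpoint adaptor claspin, with the word at 21. Cdk2 (chr10:128705002-128705301, minus strand) encodes the S phase kinase, with the word at -140.
Orc1: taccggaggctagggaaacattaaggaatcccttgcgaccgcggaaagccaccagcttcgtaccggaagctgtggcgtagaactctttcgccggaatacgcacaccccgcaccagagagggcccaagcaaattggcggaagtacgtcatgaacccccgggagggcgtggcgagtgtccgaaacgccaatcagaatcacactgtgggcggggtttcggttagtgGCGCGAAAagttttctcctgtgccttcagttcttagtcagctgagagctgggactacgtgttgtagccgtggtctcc
Clspn: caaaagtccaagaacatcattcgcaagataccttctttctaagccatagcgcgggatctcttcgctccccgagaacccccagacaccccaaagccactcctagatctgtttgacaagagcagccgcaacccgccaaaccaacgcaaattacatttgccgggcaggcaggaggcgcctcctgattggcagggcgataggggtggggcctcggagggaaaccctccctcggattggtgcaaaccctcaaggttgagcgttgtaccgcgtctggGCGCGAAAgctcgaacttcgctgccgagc
Cdk2: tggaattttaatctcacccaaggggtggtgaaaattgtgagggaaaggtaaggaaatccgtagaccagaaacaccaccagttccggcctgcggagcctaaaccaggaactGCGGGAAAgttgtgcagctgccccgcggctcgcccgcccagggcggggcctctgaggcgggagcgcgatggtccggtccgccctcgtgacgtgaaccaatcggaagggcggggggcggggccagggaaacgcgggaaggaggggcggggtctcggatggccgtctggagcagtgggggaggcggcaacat
Orc1 was higher in SAFB KD, whereas Clspn and Cdk2 were lower (values below). Of the genes with a window, 2 of 9 called higher, 5 of 10 called lower and 8 of 16 not called held a word. A match of letters is a description and does not show a bound site.

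Total counts per library ranged from 33323307 to 53441129. All 3 targets were lower in SAFB KD by the edgeR quasi-likelihood test, with log2 fold changes of -1.01 (SE 0.040) for Safb, -0.64 (SE 0.047) for Safb2 and -0.70 (SE 0.037) for Sltm. All 8 fibroblast markers were detected. Their sum was 19457 to 21428 CPM in control and 18132 to 18615 in SAFB KD. CPM are counts scaled to a common library size, with TMM factors. Of the 8, 7 were called lower, beside 20.1% of all tested genes. Pdgfrb fell most (-1.13, SE 0.038), beyond 2-fold by edgeR glmTreat (adjusted p = 0.0136), beside 1.22% of all genes. Epithelial and immune markers summed to under 1 CPM in every library (Epcam and Krt5 had 0 reads), endothelial markers to 7.89 to 8.39 against 9.38 to 10.4 and neuronal markers to 18.4 to 19.8 against 11.8 to 12.8 CPM, and their part in the results was not tested. Control 3 lay apart from the other controls on the second principal component, and the calls that changed without it are named below.

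Replication genes moved in both directions by small amounts. By edgeR, with p adjusted over all genes tested, 12 of the 46 members were higher in SAFB KD, 12 were lower and 22 were not called. The share called (52.2%) compares with 41.5% of all tested genes, 21.4% higher and 20.1% lower, and with 64.6% of the 9842 genes whose mean CPM was at or above that of the lowest member. By role the share called ran from 37.5% (E2F and G1 regulators) to 64.3% (polymerases and fork machinery), so no role exceeded 64.6%. Log2 fold changes ran from -0.45 (Gins1) to 0.32 (Orc1). None reached 1.5-fold, and 0 members changed beyond 2-fold by edgeR glmTreat (0 at an unadjusted p under 0.05, and 0 by DESeq2), beside 1.22% of all genes. The median size of change was 1.08-fold for members, 1.13-fold for those 9842 genes and 1.21-fold for all genes. CPM summed over the 46 genes was 4391 ± 20.6 in control and 4423 ± 86.2 in SAFB KD (SD, n = 3). The groups did not overlap for 29 members, beside 49.0% of all genes. Scaling by library size alone gave 9 higher and 16 lower members. These are bulk values, so that a change in the share of cells in S phase and a change in RNA per cell cannot be told apart.

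**Figure D1:**
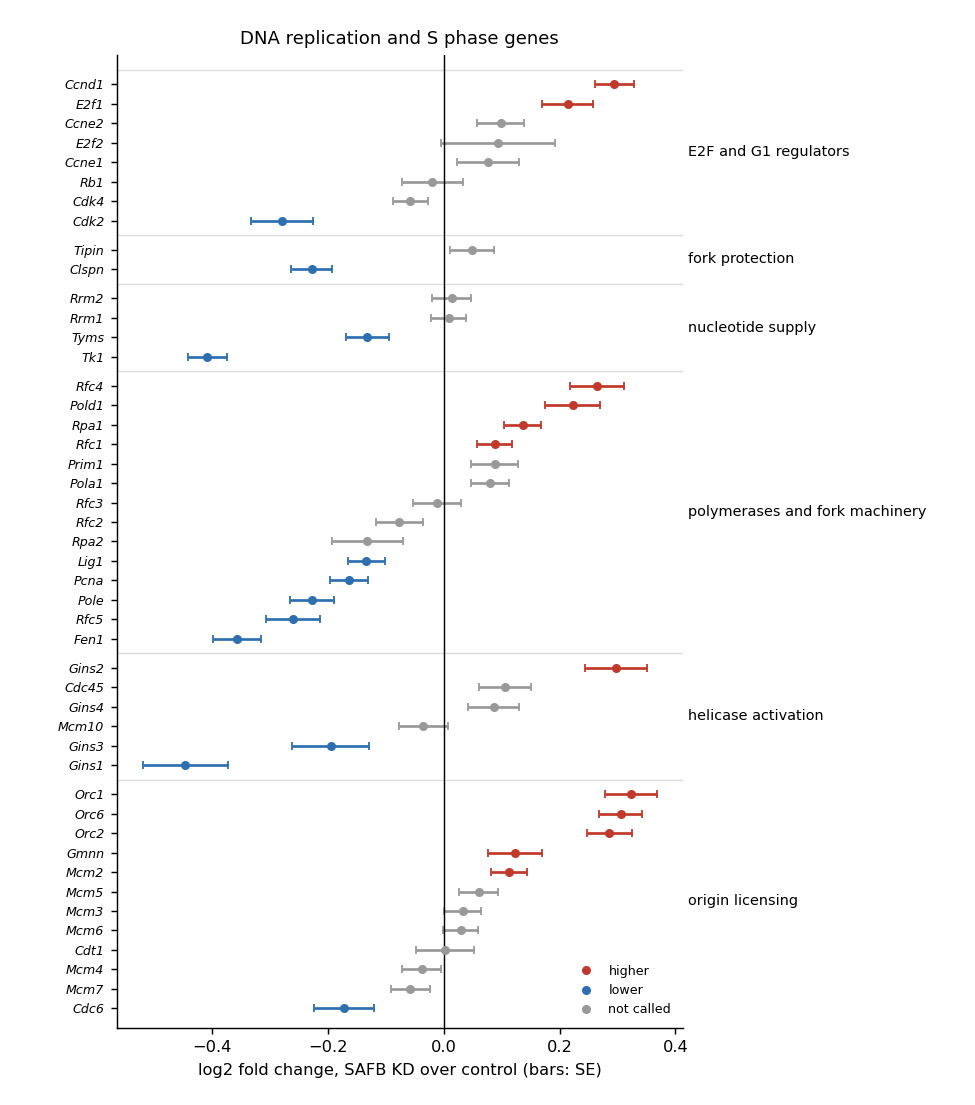
Log2 fold change between the groups, positive where SAFB KD was higher (x axis, with SE as bars), for the 46 members (y axis), by role, with genes called higher in red, called lower in blue and not called in grey. Both colours occur in 4 of the 6 roles, and the values lie between -0.45 and 0.32.

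Among the 12 licensing genes, 5 were higher, 1 was lower and 6 were not called. All 3 listed ORC subunits were higher. Orc6 (chromosome 8, 85299632 to 85308278, plus strand, GRCm38), the smallest subunit, stood at 63.9, 66.7 and 67.0 CPM in control 1 to 3 and at 82.4, 82.9 and 79.0 in SAFB KD 1 to 3. Every SAFB KD library lay above every control library (log2 fold change 0.31, SE 0.037, edgeR adjusted p = 6.26e-09). Orc2 (chromosome 1, 58462771 to 58505109, minus strand), a core subunit, stood at 91.6, 99.6 and 107 CPM in control and at 125, 120 and 118 in SAFB KD. The groups did not overlap here either, although control 1 to 3 spread widely (0.29, SE 0.039, edgeR adjusted p = 8.76e-08). Orc1 (chromosome 4, 108579423 to 108614833, plus strand), the subunit that binds and hydrolyses ATP with ORC4, stood at 36.7, 38.1 and 38.0 CPM in control and at 47.9, 46.0 and 47.1 in SAFB KD. These 6 values formed narrow groups that lay well apart (0.32, SE 0.045, edgeR adjusted p = 1.04e-07). All 3 calls held in every alternative that was run. Orc6 shares 171 exonic bases with Vps35 on the opposite strand, which also rose (0.31, SE 0.031), and Orc2 shares 1150 with Nif3l1, which rose as well (0.28, SE 0.052). Orc1 shares 376 with Gm12743, which fell (-1.12, SE 0.25) from 1.46 to 0.66 CPM. In all, 18 members share exonic bases with a gene on the opposite strand. Counting by strand, which would keep the reads of such pairs apart, is inferred for these files.

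**Figure D2:**
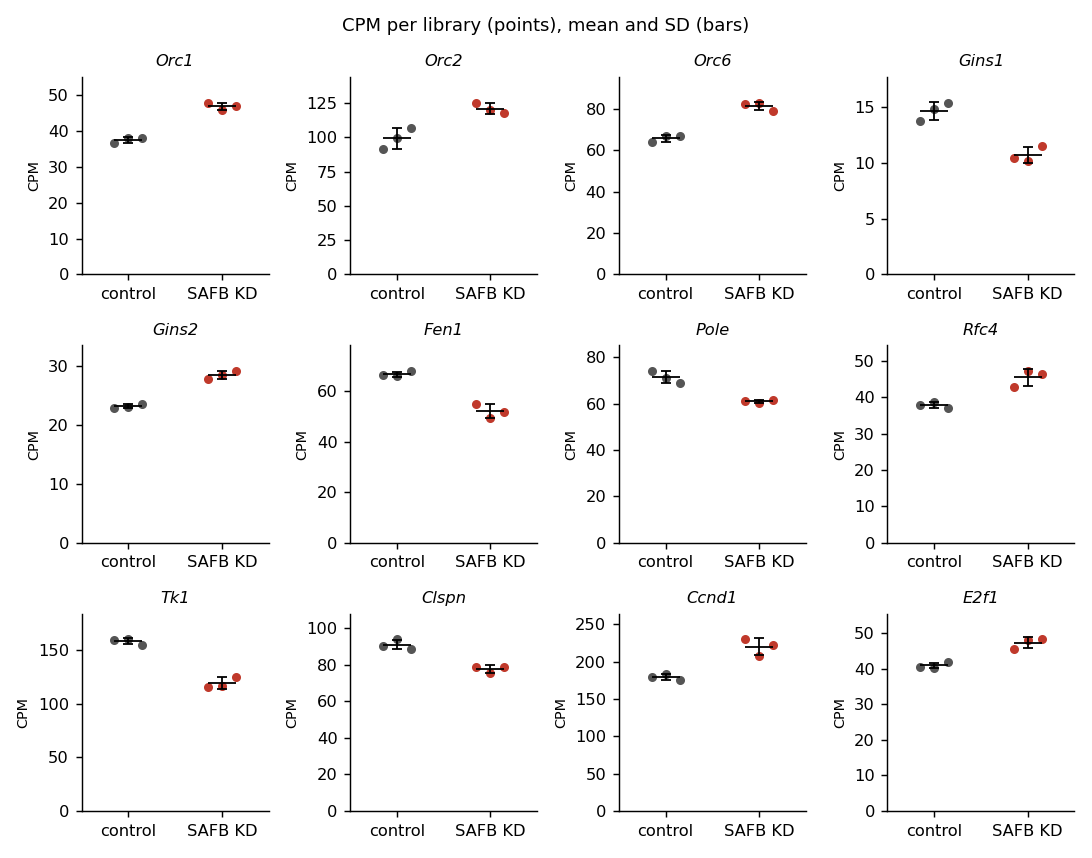
CPM in each library (points) of 12 members, with the mean (dash) and SD (bars) of each group (control in grey, SAFB KD in red, 3 libraries each); y axes start at 0. The 12 are called genes picked for display, and the groups do not overlap for any of them, beside 49.0% of all genes. Named members whose groups overlap (Gins3, Rrm2 and Tipin) are not shown. The largest differences, those of Gins1 and Tk1, are falls by 0.45 and 0.41 on the log2 scale.

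The MCM2-7 helicase, which ORC loads, was nearly level. Mcm2 rose slightly, from 150 ± 0.191 to 162 ± 2.79 CPM (SD, n = 3; 0.11, SE 0.031, edgeR adjusted p = 0.00303), a call that was lost when libraries were scaled by size alone. The other 5 subunits were not called, with log2 fold changes from -0.06 (Mcm7) to 0.06 (Mcm5) and 95% intervals that reached from -0.13 (Mcm7) to 0.13 (Mcm5). With library size alone Mcm7 was called lower. Summed over the 6 subunits, control 1 to 3 held 982, 988 and 962 CPM and SAFB KD 1 to 3 held 1006, 963 and 1003, so the groups overlapped. Per length of exon the subunits were not equal in control: Mcm4 stood at 56.1 CPM per kb, Mcm3 at 43.2, Mcm6 at 41.0, Mcm7 at 35.9, Mcm5 at 28.6 and Mcm2, the lowest, at 21.5. The order was the same in SAFB KD. It depends on the exon lengths used, which were 6956 bases for Mcm2 and 3993 for Mcm5. In CPM without that division, Mcm2 (150) stood above Mcm5 (114) in control.

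The remaining licensing genes, Cdc6, Cdt1 and Gmnn, did not move together. Cdc6, which encodes the ATPase that acts with ORC, fell by 0.17 (SE 0.051, edgeR adjusted p = 0.00552), from 44.0 ± 0.508 to 39.2 ± 3.81 CPM (SD, n = 3), and this call was lost without SAFB KD 2. Cdt1, which encodes the partner that brings MCM2-7 to ORC, was not called (0.00, 95% interval -0.10 to 0.10). Gmnn, which encodes the CDT1 inhibitor geminin, was higher by 0.12 (SE 0.047, edgeR adjusted p = 0.0309). The Gmnn call was lost in 7 of 13 alternatives: with library size alone, with DESeq2, and when any library but SAFB KD 3 was left out.

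Subunits of the GINS complex, which has 1 copy of each of 4 proteins, moved in opposite directions. Gins1 (chromosome 2, 150905400 to 150931280, plus strand) stood at 13.8, 14.9 and 15.4 CPM in control and at 10.5, 10.1 and 11.5 in SAFB KD. All SAFB KD libraries lay below all controls, the largest fall among the members (-0.45, SE 0.074, edgeR adjusted p = 3.2e-06). Gins2 (chromosome 8, 120578633 to 120589304, minus strand) stood at 22.8, 23.1 and 23.5 CPM in control and at 27.7, 28.4 and 29.1 in SAFB KD. Here all SAFB KD libraries lay above all controls (0.30, SE 0.054, edgeR adjusted p = 1.39e-05). Gins3 stood at 19.1, 17.9 and 20.3 CPM in control and at 18.2, 16.2 and 15.7 in SAFB KD. The groups overlapped through SAFB KD 1, and the fall of Gins3 (-0.20, SE 0.066, edgeR adjusted p = 0.0156) was lost when any of control 3, SAFB KD 2 and SAFB KD 3 was left out. Gins4 was not called (0.09, 95% interval -0.0029 to 0.17). Gins2 shares 2758 exonic bases with Gse1 on the opposite strand, which fell (-0.61, SE 0.073).

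Per length of exon, Gins4 stood highest among GINS subunits in control (32.97 CPM per kb), and Gins1 (9.68), Gins3 (7.04) and Gins2 (5.65) were lower. This order of levels per length rests in part on the exon lengths used, from 1349 bases for Gins4 to 4097 for Gins2. Taken as a ratio of these levels, Gins2 over Gins1 was 0.613, 0.575 and 0.565 in control and 0.977, 1.04 and 0.935 in SAFB KD. The ratio was higher in all SAFB KD libraries, for a pair chosen after its values were seen and given with no test. Its absolute size depends on the exon lengths used, which were not tested, whereas its fold change between groups does not. Of the other activators of the helicase, Cdc45 (0.11, SE 0.045, edgeR adjusted p = 0.0589; called higher without control 2) and Mcm10 (-0.04, SE 0.042, edgeR adjusted p = 0.558), which encodes a factor for opening origins, were not called.

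**Figure D3:**
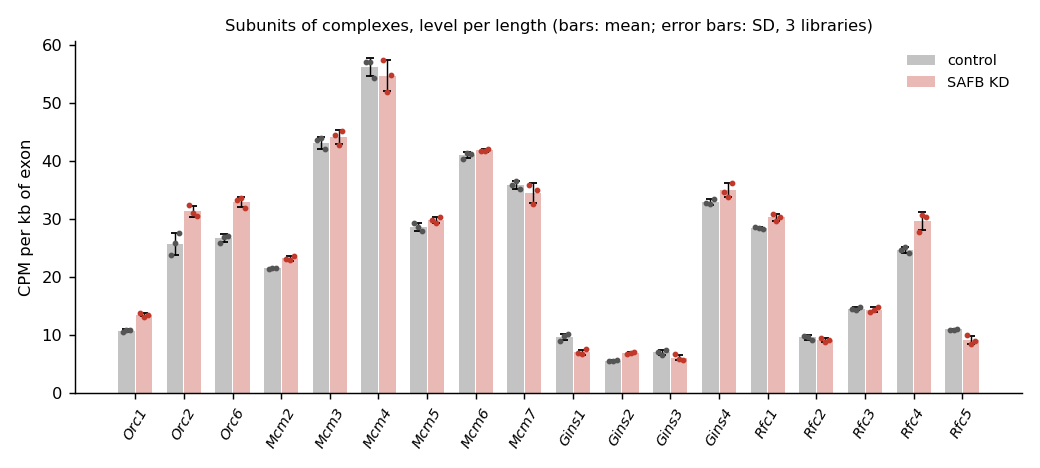
CPM per kb of exon (y axis) of subunits of ORC, MCM2-7, GINS and RFC, as mean (bars), SD (error bars) and single libraries (points) for 3 control (grey) and 3 SAFB KD (red) libraries. MCM subunits run from 21.5 to 56.1 in control with little difference between groups, whereas Gins1 falls and Gins2 rises.

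Among the 14 genes of polymerases and fork machinery, 4 were higher, 5 were lower and 5 were not called. Fen1 (chromosome 19, 10199132 to 10204169, minus strand), which encodes the flap nuclease of Okazaki fragment maturation, stood at 66.1, 65.9 and 67.9 CPM in control and at 55.0, 49.4 and 51.8 in SAFB KD. The groups did not overlap (-0.36, SE 0.041, edgeR adjusted p = 2.12e-09). Fen1 shares 1909 exonic bases with Gm10143 on the opposite strand, which stood at 0.71 CPM in control and 0.35 in SAFB KD. Lig1, which encodes the ligase that seals the fragments, fell by 0.13 (SE 0.032), and Pcna, which encodes the clamp that holds both enzymes on DNA, by 0.16 (SE 0.033). Pcna reads can be shared with the processed copy Pcna-ps2, listed at 40.9 CPM in control and 34.3 in SAFB KD (-0.26, SE 0.052), so the value of Pcna is uncertain.

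The catalytic subunits of the leading- and lagging-strand polymerases moved apart. Pole (chromosome 5, 110286306 to 110337474, plus strand), which encodes that of polymerase epsilon, the leading-strand enzyme, stood at 74.0, 71.2 and 69.0 CPM in control and at 61.1, 60.4 and 61.5 in SAFB KD. The SAFB KD libraries were nearly equal and all lay below the controls (-0.23, SE 0.038, edgeR adjusted p = 4.25e-06). Pold1, which encodes that of polymerase delta, the lagging-strand enzyme, rose from 33.7 ± 0.509 to 39.3 ± 1.07 CPM (SD, n = 3; 0.22, SE 0.047, edgeR adjusted p = 0.000148). As a ratio of levels per length of exon, Pold1 over Pole was 1.06, 1.08 and 1.11 in control and 1.43, 1.52 and 1.48 in SAFB KD, again a pair chosen after its values were seen. Pola1 (0.08, SE 0.033, edgeR adjusted p = 0.0516; called higher by limma-voom and without SAFB KD 2) and Prim1 (0.09, SE 0.041, edgeR adjusted p = 0.089), which encode subunits of the polymerase alpha and primase complex that starts each strand, were not called.

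The RFC clamp loader, a ring of 5 subunits, was also split. Rfc4 (chromosome 16, 23113943 to 23127737, minus strand) stood at 37.8, 38.7 and 37.2 CPM in control and at 42.7, 47.2 and 46.4 in SAFB KD. All SAFB KD libraries were higher (0.26, SE 0.047, edgeR adjusted p = 1.02e-05). Rfc5 fell from 51.4 ± 0.512 to 43.0 ± 3.42 CPM (SD, n = 3; -0.26, SE 0.047, edgeR adjusted p = 1.34e-05). Rfc1, the large subunit, was higher by 0.09 (SE 0.031, edgeR adjusted p = 0.019), a call lost in 5 of 13 alternatives, among them the fits that left out control 2, control 3, SAFB KD 1 and SAFB KD 3. Rfc2 (-0.08, 95% interval -0.16 to 0.0061) and Rfc3 (-0.01, 95% interval -0.096 to 0.073) were not called. Rfc2 was called lower without control 3 and with library size alone. Of the subunits of RPA, which coats single-stranded DNA, Rpa1 rose by 0.14 (SE 0.031, edgeR adjusted p = 0.000414). Rpa2 was not called (-0.13, 95% interval -0.26 to -0.0090) but was called lower without control 3, with library size alone and with another filter on low counts.

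In nucleotide supply, 2 of 4 genes were lower and none was higher. Tk1 (chromosome 11, 117815526 to 117826092, minus strand), which encodes the thymidine kinase of the salvage route, stood at 160, 160 and 155 CPM in control and at 116, 117 and 126 in SAFB KD. It had the smallest adjusted p of all members (-0.41, SE 0.034, edgeR adjusted p = 4.16e-13), and no libraries overlapped. Tyms, which encodes thymidylate synthase, the enzyme of the de novo route to dTMP, stood at 75.7, 76.5 and 80.9 CPM in control and at 70.3, 69.9 and 72.2 in SAFB KD. The difference was small but the groups did not overlap (-0.13, SE 0.037, edgeR adjusted p = 0.00346). Rrm2, which encodes the small subunit of ribonucleotide reductase, stood at 167, 172 and 169 CPM in control and at 180, 163 and 170 in SAFB KD. The groups overlapped fully (0.01, 95% interval -0.054 to 0.081, edgeR adjusted p = 0.801). Rrm1, the large subunit, was not called either (0.01, 95% interval -0.053 to 0.069). Both genes of thymidylate supply were thus lower, while both of ribonucleotide reductase had intervals around 0.

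Fork protection held 2 genes. Clspn, which encodes claspin, the adaptor through which ATR activates CHK1, stood at 90.3, 93.8 and 88.8 CPM in control and at 79.0, 75.2 and 78.9 in SAFB KD. All SAFB KD libraries were lower (-0.23, SE 0.036, edgeR adjusted p = 1.24e-06). Tipin, which encodes the partner of TIMELESS at the fork, stood at 64.2, 65.4 and 67.8 CPM in control and at 68.9, 68.6 and 66.5 in SAFB KD, and the groups overlapped (0.05, 95% interval -0.029 to 0.13, edgeR adjusted p = 0.342).

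Of the 8 E2F and G1 regulators, 2 were higher, 1 was lower and 5 were not called. Ccnd1 (chromosome 7, 144929931 to 144939925, minus strand), which encodes cyclin D1, stood at 179, 183 and 176 CPM in control and at 230, 208 and 223 in SAFB KD. SAFB KD libraries lay above all controls, with a wider spread (0.29, SE 0.033, edgeR adjusted p = 1.26e-09). Ccnd1 shares 1100 exonic bases with LTO1 on the opposite strand, which fell (-0.23, SE 0.076). E2f1 (chromosome 2, 154559407 to 154569892, minus strand), which encodes an activator E2F, stood at 40.6, 40.3 and 41.8 CPM in control and at 45.6, 48.1 and 48.2 in SAFB KD. It was higher in every SAFB KD library (0.21, SE 0.044, edgeR adjusted p = 0.000104). Cdk2 (chromosome 10, 128697939 to 128705031, minus strand) stood at 32.3, 30.8 and 29.6 CPM in control and at 26.9, 24.7 and 25.1 in SAFB KD, lower in every library (-0.28, SE 0.054, edgeR adjusted p = 3.76e-05). The cyclin E genes Ccne1 (0.08, 95% interval -0.033 to 0.18) and Ccne2 (0.10, 95% interval 0.015 to 0.18), E2f2 (0.09, -0.11 to 0.29), Cdk4 (-0.06, -0.12 to 0.0040) and Rb1 (-0.02, -0.13 to 0.086) were not called. Ccne2 was called higher without control 2 or SAFB KD 2 and without a filter on low counts, and Ccne1 higher without SAFB KD 2. Cdk4 was called lower without control 3 and with library size alone.

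Other genes of the same steps were counted beside the members. Of 81 listed genes outside the members, apart from mitotic genes, 77 were tested, and 19 were higher, 19 were lower and 39 were not called. The share called (49.4%) was below the 64.6% of genes at or above the mean CPM of the lowest member. All 77 stood above that floor. The share of all tested genes, 41.5%, includes genes of lower counts. By list the share called ran from 41.7% (nucleotide supply) to 57.1% (licensing and firing), so no list exceeded 64.6%. Without control 3, the calls of Recql4, Rnaseh2a, Chaf1b and Tfdp1 were lost, and Mcm9, Pole2 and Ccna2 were called lower. These genes were chosen because their calls changed in that fit, but for all except Mcm9 other fits changed the call too. Of the 13 alternatives, the call changed in 6 for Chaf1b, 5 for Recql4, 5 for Tfdp1 and 4 for Rnaseh2a. It changed in 3 for Pole2, 2 for Ccna2 and 1 for Mcm9. Among 14 other licensing and firing factors, 4 were higher and 4 lower. The ORC subunit gene Orc4 rose from 88.1 ± 2.097 to 114 ± 3.83 CPM (SD, n = 3; 0.38, SE 0.035), whereas Orc3 (0.01, SE 0.053) and Orc5 (0.12, SE 0.049), named to complete the complex, were not called. Ticrr fell by 0.50 (SE 0.050) and Mtbp rose by 0.35 (SE 0.040), although their products, treslin and MTBP, act as a complex in origin firing. Cdc7, which encodes the kinase that phosphorylates MCM2-7, fell by 0.24 (SE 0.047).

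Among 22 other polymerase, clamp and fork genes, 4 were higher and 7 lower. Of the 3 accessory subunits of polymerase delta, Pold2 rose by 0.30 (SE 0.044) and Pold4 by 0.34 (SE 0.053), as Pold1 did, while Pold3, named to complete the complex, was not called (0.07, SE 0.050). Uhrf1, which encodes the reader that brings DNMT1 to new DNA, fell by 0.30 (SE 0.031), and Atad5, which encodes the unloader of PCNA, by 0.34 (SE 0.043). Among 12 other nucleotide supply genes, 5 were higher and none was lower by edgeR. Shmt2, which encodes a mitochondrial serine enzyme that feeds the folate cycle, rose from 118 ± 5.04 to 160 ± 2.81 CPM (SD, n = 3; 0.45, SE 0.034), Dctpp1, which encodes a dCTP pyrophosphatase, by 0.39 (SE 0.074), the pyrimidine synthesis gene Cad by 0.22 (SE 0.034) and the dCMP deaminase gene Dctd by 0.22 (SE 0.056).

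Among 15 tested genes of other E2F, RB and DREAM proteins, 2 were higher and 5 lower. Tfdp2, which encodes an E2F dimer partner, fell by 0.41 (SE 0.046), and the RB relatives Rbl2 and Rbl1 fell by 0.33 (SE 0.047) and 0.21 (SE 0.039). E2f5, which encodes a repressor E2F, rose by 0.32 (SE 0.051). E2f6 had 8 reads in all and was not tested.

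The G1 genes outside the members held the largest differences of the pathway. Myc, which encodes a growth-promoting transcription factor, stood at 107, 99.2 and 94.9 CPM in control and at 176, 195 and 193 in SAFB KD (0.90, SE 0.039, edgeR adjusted p = 9.86e-22). Ccnd3, which encodes cyclin D3, stood at 66.8, 64.6 and 63.4 CPM in control and at 37.9, 38.7 and 37.5 in SAFB KD (-0.77, SE 0.042, edgeR adjusted p = 1.54e-18). In both genes the groups lay far apart. Ccnd2 fell by 0.16 (SE 0.034), and Skp2, which encodes the ubiquitin ligase subunit that targets p27, rose by 0.38 (SE 0.040). In all, 3 of these 10 genes were higher and 2 lower.

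D-type cyclins thus moved in opposite directions while their sum was nearly level, at 474 ± 13.8 CPM in control and 464 ± 9.72 in SAFB KD (SD, n = 3), with groups that overlapped. Per length of exon Ccnd1 went from 38.1 to 46.8 CPM per kb, Ccnd2 from 24.4 to 21.8 and Ccnd3 from 7.40 to 4.33. Their order depends on the exon lengths used, 4709 bases for Ccnd1, 9409 for Ccnd2 and 8775 for Ccnd3. The ratio of Ccnd1 to Ccnd3 on that scale was 5.001, 5.28 and 5.17 in control and 11.3, 10.01 and 11.1 in SAFB KD, a pair chosen after its values were seen. Of the CDK inhibitors, Cdkn1a, which encodes p21, rose by 0.43 (SE 0.033, edgeR adjusted p = 6.63e-14) and Cdkn2c, which encodes p18, fell by 0.27 (SE 0.038). Cdkn1b (-0.02, SE 0.034) and Cdkn2d (0.06, SE 0.068) were not called, and Cdkn1c, Cdkn2a and Cdkn2b had 0 reads in all libraries.

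**Figure D4:**
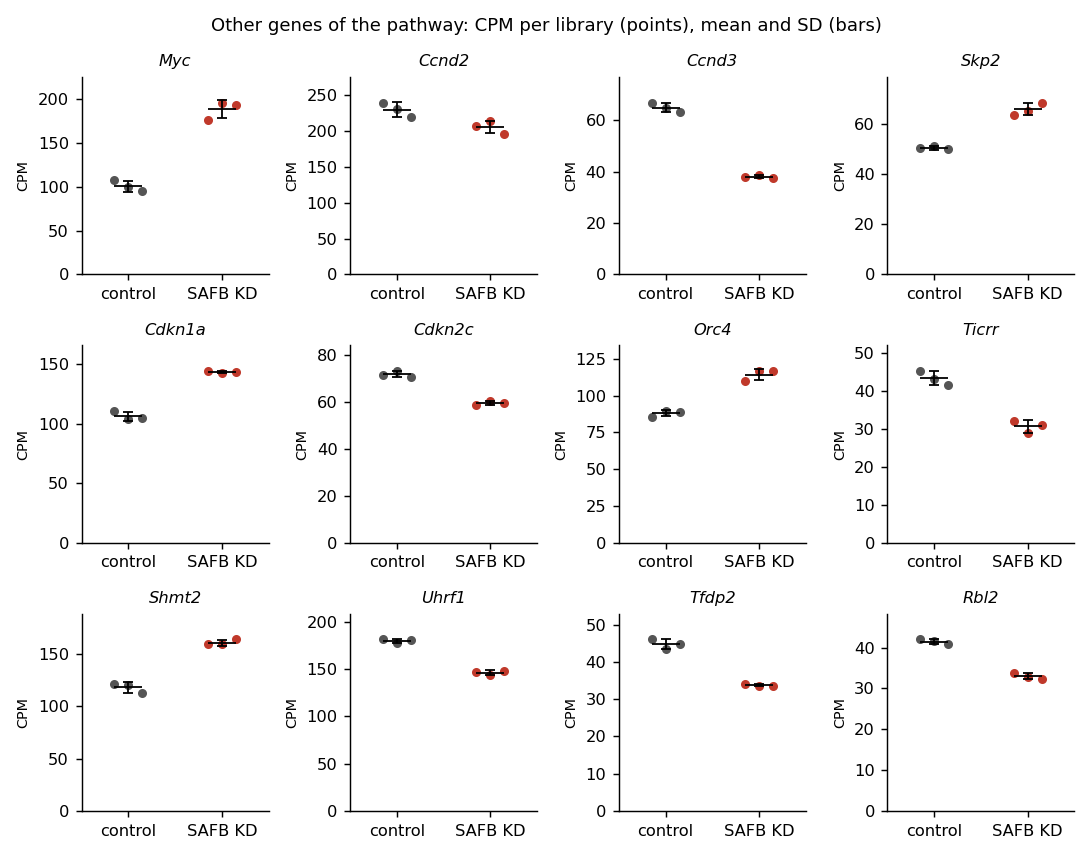
CPM in each library (points) of 12 genes of the pathway outside the 46 members, with the mean (dash) and SD (bars) of each group (control in grey, SAFB KD in red, 3 libraries each); y axes start at 0. Myc (0.90 on the log2 scale) and Ccnd3 (-0.77) differ most. The 12 are called genes picked for display, and the groups do not overlap for any of them, beside 49.0% of all genes. Some named genes whose groups overlap, such as Cdkn1b and Cdkn2d, are not shown.

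Gene length and neighbours were looked at last. The Spearman correlation of log2 fold change with genomic span was 0.13 across the 46 members and -0.14 across 13506 protein-coding genes, and that with exonic length was -0.15 and -0.18. These are descriptions across genes that share the same libraries. Of the members, 4 held a tested gene on their own strand within an intron. Of these 4 nested genes 0 were called by edgeR, beside 41.5% of all tested genes. They had only 29 to 74 reads each over the 6 libraries, with SEs of 0.48 to 0.86. At such low counts the absence of calls does not show whether nested genes responded.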

How the data were processed

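The members, lists and rules were chosen with earlier results of these data known. The deposited values were counts, whole reads per gene and library, unscaled. The authors aligned reads to GRCm38 with STAR 2.7.9a, and deepTools 3.5.1 also stands in the submitters' processing notes. That the column held reverse-stranded counts is inferred. Of 54532 identifiers, 54495 matched GENCODE M21, which gave symbols, coordinates and exons. Genes under 10 reads over 6 libraries were removed.

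Groups came from the titles. Replicates are described as biological by the submitters; p-values measure only the spread between these samples. Counts were scaled by TMM and tested, 2-sided, in edgeR 4.0.16 under R 4.3.3 (quasi-likelihood), adjusted by Benjamini-Hochberg over 19452 genes, and called under 0.05. The SE is set so that the change over it matches that test, and 95% intervals use it. Changes beyond 2-fold were tested with glmTreat. CPM used TMM-scaled libraries, and levels per length divide it by the union of exons. That union holds every annotated exon of a gene, so the order of such levels between genes depends on it. Alternatives used other scaling or filters, DESeq2 1.42.0, limma-voom (limma 3.58.1), a replicate block, or 1 library fewer, and the code was tested on simulated data. Library values were given for the 3 smallest adjusted p per role, up to 4 genes were named per pathway list, and promoters were printed for the 3 called members of smallest adjusted p with the word.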

Additional observations from a re-analysis of the deposited data

How the results depend on the processing

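Of the 24 called members, 19 kept their call and direction in all 13 alternatives; the others were Cdc6, Gmnn, Mcm2, Gins3 and Rfc1. Of the 22 not called, 8 were called in at least 1 alternative. With 1 library left out, 22 to 24 members were called (10 to 14 higher, 10 to 14 lower), and 45 to 50 genes of the pathway lists, beside 24 and 50. Over all genes these fits called 3560 to 3904 higher and 3526 to 3932 lower. The log2 fold change of Rrm2, 0.01 and not called, changed sign to -0.026 with library size only, -0.0046 without control 1, -0.0017 without control 3 and -0.024 without SAFB KD 1, and ran up to 0.046 without SAFB KD 2; the cause was not tested. Changes this close to 0 have no clear direction beside the spread between libraries (Rrm2 at 169 ± 2.59 CPM in control and 171 ± 8.40 in SAFB KD, SD, n = 3).

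Replicate numbers were not shown to pair libraries: deviations of same-numbered libraries correlated at 0.053, 0.015 and -0.0011, and 2 of 6 libraries correlated best with their own number. With the replicate block, 25 members (13 higher, 12 lower, with Ccne2 the 1 call gained and none lost) and 8117 genes in all were called. The share of 64.6% called among genes at or above the mean CPM of the lowest member was chosen after seeing the data.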

Other observations

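Of 17 genes listed as mitotic, 7 were higher, 5 lower and 5 not called by edgeR. The share called was 70.6%, beside 41.5% of all tested genes and 64.6% of genes at or above the mean CPM of the lowest member. Mki67, which encodes the proliferation marker Ki-67, stood at 597, 607 and 586 CPM in control and at 400.2, 383 and 380.0 in SAFB KD (log2 fold change -0.62, SE 0.030). Cenpf fell by 0.46 (SE 0.033), the kinesin gene Kif11 by 0.28 (SE 0.031) and Foxm1, which encodes a transcription factor of G2 genes, by 0.28 (SE 0.035). Cdk1, which encodes the mitotic kinase, rose by 0.20 (SE 0.031) and Aurka by 0.25 (SE 0.040), 2 genes named after their values were seen. CPM summed over the list was 3917 ± 37.3 in control and 3568 ± 52.6 in SAFB KD (SD, n = 3). Most of the difference in this sum came from Mki67 and from Top2a, which encodes a topoisomerase and went from 1576 ± 11.7 to 1452 ± 22.0 CPM (SD, n = 3); the median log2 fold change of the list was 0.07, with 9 of 17 genes above 0. The rise of Plk1 (0.13, SE 0.043) was lost without control 3, without SAFB KD 3 and with library size alone. Top2a and Plk1 were also named after their values were seen.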
